A study of Mus musculus with 12 samples.

Results

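The 6 genes described here mark oligodendrocyte precursor cells and the oligodendrocyte lineage: Pdgfra, Cspg4, Vcan, Olig1, Olig2 and Sox10. They were taken as a named list out of 12393 genes with a probe set on the array, and were chosen with earlier results of these data known. The probe set whose mean across all 12 arrays was highest stood for its gene, and its other probe sets were used to check it. All 6 passed the filter on low values, which kept 8256 genes with at least 3 arrays above their array's 40th percentile.

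The arrays hold striatal RNA of 12 C57Bl/6 mice, 1 array per mouse. Controls and TIF-IAD1RCre mutants were each sampled at 9 and at 13 weeks of age, 3 mice to a group. One passage of the series' design counts 5 arrays for a condition; those analysed here number 3 per group. In the mutants the gene of TIF-IA, a factor that RNA polymerase I needs to transcribe ribosomal RNA genes, is deleted by Cre under control of the D1 dopamine receptor gene, which is active in a class of striatal neurons. The oligodendrocyte lineage is therefore not the cell population in which this Cre is meant to act. The alleles that the controls carry are not given in the sources used here.

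Oligodendrocyte precursor cells are dividing glia spread through grey and white matter of the adult brain, and they give rise to the oligodendrocytes that make myelin. They are recognised by PDGFRA, the receptor through which platelet-derived growth factor keeps them dividing, and by the proteoglycan NG2, the product of Cspg4. OLIG1, OLIG2 and SOX10 are transcription factors that stay on from the precursor to the myelinating cell, while PDGFRA and NG2 are lost as precursors mature. NG2 is also made by pericytes, PDGFRA by perivascular fibroblasts and versican, the product of Vcan, by several cell types that lay down extracellular matrix.

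The labels name medium spiny neurons as the cell type, but the arrays also held RNA of glia. All 11 mature oligodendrocyte genes tested, all 12 astrocyte genes and 12 of 13 microglia genes lay above the 40th percentile in each of the 12 arrays. The values are therefore treated as those of striatal tissue, in which a change in the number of cells of a type and a change in RNA per cell cannot be told apart. Xist and Eif2s3y showed 1 female in each control group and among the mutants at 9 weeks, while all 3 mutants at 13 weeks were female. The female control at 13 weeks was mouse 3. A fit without that mouse compares male controls with female mutants at 13 weeks, so that genotype and sex cannot be told apart there. Rrn3, the gene of TIF-IA, read 7.97 to 8.20 in controls and 6.90 to 6.96 in mutants at 9 weeks, and 7.54 to 8.04 and 7.18 to 7.72 at 13 weeks, where the groups overlapped. The thalamic marker Slc17a6 and the interneuron marker Calb2 were high in mutant mouse 3 at 9 weeks (Slc17a6 at 7.99) and in control mouse 1 at 13 weeks (Slc17a6 at 7.08). Without both arrays Pdgfra, Cspg4 and Vcan still passed at 13 weeks, and the Cspg4 interaction described further on did not (adjusted p = 0.0769). Control mouse 2 at 13 weeks, raised to a lesser degree (Slc17a6 at 4.44, Calb2 at 5.01), stayed in that fit. Values are log2 GCRMA signals, and effects are differences of group means with the standard error (SE) from limma and Benjamini-Hochberg adjustment over all 8256 genes.

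The RefSeq promoter table (GRCm38.p6) holds 4 of the 6 genes, Pdgfra, Cspg4, Vcan and Olig2. They are shown because the first 3 passed the test at 13 weeks and Olig2 did not. Each run covers 250 bases before and 50 from the start of transcription on, written 5′ to 3′ on the gene's strand, and capitals mark the E-box CANNTG, the motif bound by basic helix-loop-helix factors such as OLIG1 and OLIG2.
Pdgfra, chr5:75152001-75152300, plus strand: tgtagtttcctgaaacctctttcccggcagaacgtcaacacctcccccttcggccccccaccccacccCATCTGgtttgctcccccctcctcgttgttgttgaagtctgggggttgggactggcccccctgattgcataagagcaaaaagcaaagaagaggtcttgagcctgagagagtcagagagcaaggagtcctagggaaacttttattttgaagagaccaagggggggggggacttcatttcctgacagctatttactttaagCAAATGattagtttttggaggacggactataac
Cspg4, chr9:56864854-56865153, plus strand: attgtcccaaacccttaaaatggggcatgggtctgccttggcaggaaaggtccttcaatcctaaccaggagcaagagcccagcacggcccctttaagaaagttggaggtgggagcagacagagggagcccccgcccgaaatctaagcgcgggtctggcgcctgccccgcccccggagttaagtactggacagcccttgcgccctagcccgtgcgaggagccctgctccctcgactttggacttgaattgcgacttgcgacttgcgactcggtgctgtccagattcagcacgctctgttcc
Vcan, chr13:89742463-89742762, minus strand: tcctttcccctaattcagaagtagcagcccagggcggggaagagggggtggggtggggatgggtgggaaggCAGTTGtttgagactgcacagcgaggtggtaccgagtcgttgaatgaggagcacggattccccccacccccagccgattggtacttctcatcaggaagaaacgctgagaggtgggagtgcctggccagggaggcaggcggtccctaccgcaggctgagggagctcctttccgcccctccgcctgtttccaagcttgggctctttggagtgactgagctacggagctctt
Olig2, chr16:91225300-91225599, plus strand: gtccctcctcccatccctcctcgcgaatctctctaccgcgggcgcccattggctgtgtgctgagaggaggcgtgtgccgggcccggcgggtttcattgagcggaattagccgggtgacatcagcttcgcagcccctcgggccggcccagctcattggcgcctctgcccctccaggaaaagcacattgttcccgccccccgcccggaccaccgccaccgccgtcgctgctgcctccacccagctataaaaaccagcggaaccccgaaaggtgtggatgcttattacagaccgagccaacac

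Counted from 1 at the 5′ end of each run, the E-box stood at positions 69 and 268 in the Pdgfra run and at position 72 in the Vcan run. It was found 0 times in the Cspg4 and the Olig2 run, and 72.3% of all 32851 promoter runs of this length hold it. ACAAT, a core of the motif of SOX factors, occurred once each in Cspg4, at position 1, and in Olig2, at position 184, read on either strand, against 31.0% of all runs. The longer SOX core ACAAAG was found 0 times in these 4 runs, and 18.7% of all runs hold it. The GC box GGGCGG occurred 2 times each in Cspg4, Vcan and Olig2 and 0 times in Pdgfra, against 35.7% of all runs. None of these motifs overlapped another in the 4 runs, and a match is a description of the letters only. The GC content was 51.0% for Pdgfra, 60% for Cspg4, 61.0% for Vcan and 65.0% for Olig2, beside a median of 52.7% over all runs. Olig1 and Olig2 lie beside each other on chromosome 16, with 1 annotated gene and 0 protein-coding genes between them in the RefSeq table.

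**Figure D1:**
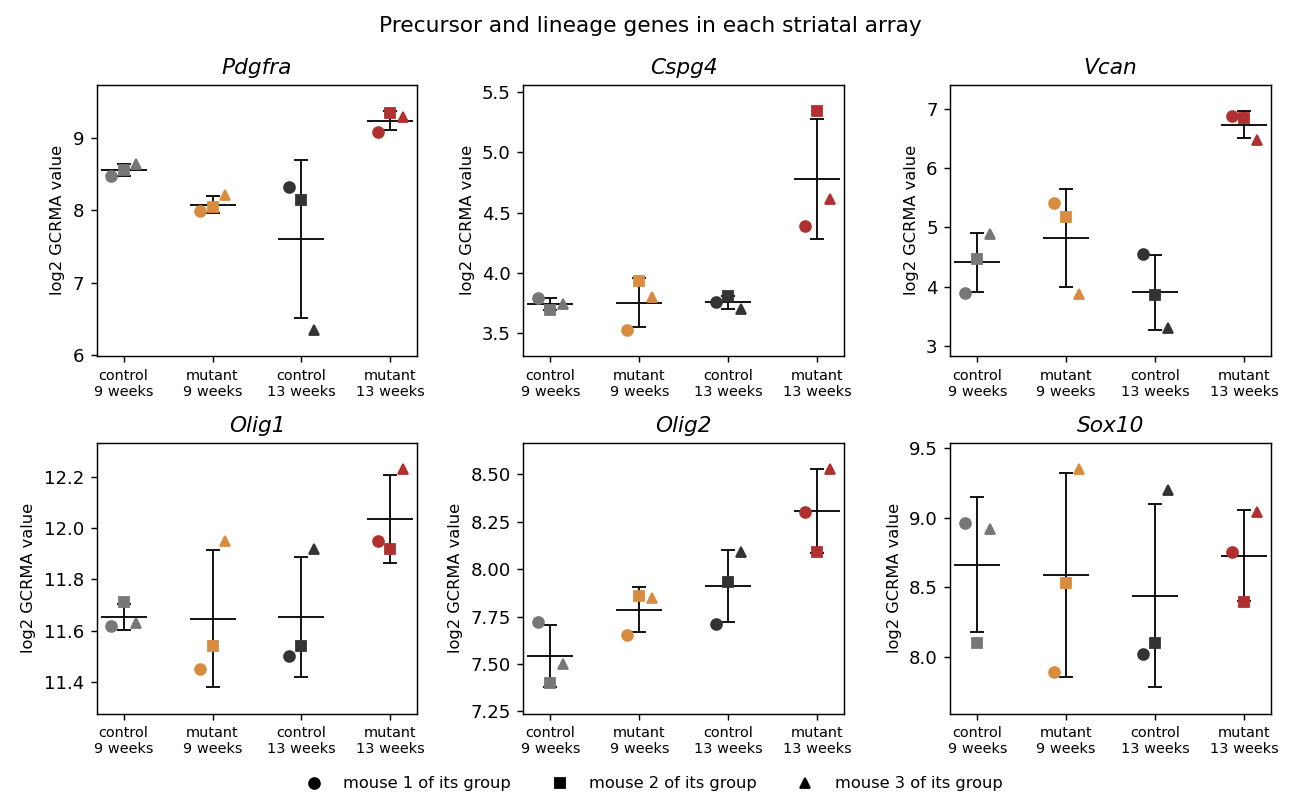
Log2 GCRMA values of the 6 genes in each of the 12 arrays, with group means (long bars) and SD (capped lines, n = 3); marker shapes number the mice within a group and pair nothing between groups. For Pdgfra, Cspg4 and Vcan all 3 mutants at 13 weeks lie above every other array, and the Pdgfra value of 6.35 in control mouse 3 at 13 weeks stands far below the other 2 controls.

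At 13 weeks the 3 surface and matrix genes were higher in mutants than in controls and the 3 transcription factors did not pass the test. Vcan rose 7.09-fold, Pdgfra 3.11-fold and Cspg4 2.03-fold. Olig1, Olig2 and Sox10 differed by 1.30-fold, 1.32-fold and 1.22-fold in the same direction, with adjusted p = 0.0977, 0.0697 and 0.588. With 3 of 6 genes higher and 0 lower, the share of the list lay above the 23.4% of all genes that were higher at this age, but 45.3% of all genes passed in 1 direction or the other and 21.9% were lower. The median difference of the 6 genes was 0.71, against 0.0033 over all 8256 genes. Median centring of the arrays moved the latter to -0.16 and the share of higher calls among all calls from 51.6% to 39.5%, and the 3 genes still passed.

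Pdgfra, the receptor gene, read 8.32, 8.14 and 6.35 in the controls at 13 weeks and 9.09, 9.34 and 9.29 in the mutants of that age. All 3 mutants lay above all 3 controls, as did 27.8% of all genes tested, and control mouse 3 lay apart from the other controls. The difference was 1.64 ± 0.39 (SE, n = 3 per group, adjusted p = 0.00501), with a 95% interval from 0.78 to 2.49. Without control mouse 3 at 13 weeks the difference was smaller, 1.01 and still passed (adjusted p = 0.000115), but the controls left were male and the mutants female. With sex as a term, since all mutants of this age were female, the difference was 2.06 for Pdgfra, 1.12 for Cspg4 and 2.68 for Vcan, and all 3 passed. The only female control of this age was mouse 3, with the Pdgfra value of 6.35. A second probe set of Pdgfra, at lower signal, differed by 0.96 ± 0.30 in the same direction and also passed (adjusted p = 0.0216) when every probe set was tested on its own, where 42.3% of 14136 probe sets passed. By this second probe set control mouse 3 did not lie apart, at 4.49 beside 4.41 and 4.25 in the other controls.

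Cspg4, the NG2 gene, read 3.76, 3.81 and 3.70 in controls and 4.39, 5.34 and 4.61 in mutants at 13 weeks. All mutants were above all controls, and mutant mouse 2 was the highest. The difference was 1.02 ± 0.22 (adjusted p = 0.00235; 95% interval 0.55 to 1.496). The control values lay close to the 40th percentile of their arrays, at 3.52, 3.52 and 3.61, so that the rise starts from the low end of the scale. In the mutants of that age the percentile was higher, at 3.81, 3.80 and 3.71. The other Cspg4 probe set did not differ by more than its error: it read 3.55, 3.55 and 3.81 in controls and 3.54, 3.72 and 3.52 in mutants (-0.04 ± 0.13, adjusted p = 0.81), and 0 of its 3 mutant values lay above the percentile. The rise of Cspg4 thus rests on 1 probe set, and as the mean of both the difference was 0.49 (adjusted p = 0.0165).

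Vcan, the gene of a large hyaluronan-binding proteoglycan of the extracellular matrix, read 4.55, 3.86 and 3.30 in controls and 6.88, 6.84 and 6.47 in mutants at 13 weeks. The lowest mutant stood far above the highest control. The difference was 2.83 ± 0.41 (adjusted p = 0.000186; 95% interval 1.92 to 3.73), the largest among the 6 genes. Its size on the log2 scale depends on the probe set. A second one was 3.03, 3.04 and 3.08 in controls and 3.89, 4.81 and 3.29 in mutants, a difference of 0.95 with 2 of 3 mutants and 0 controls above the percentile, and the remaining one lay between 1.95 and 2.00 in all 12 arrays and differed by -0.01. As the mean of its 3 probe sets Vcan differed by 1.26 and passed (adjusted p = 0.000352).

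**Figure D2:**
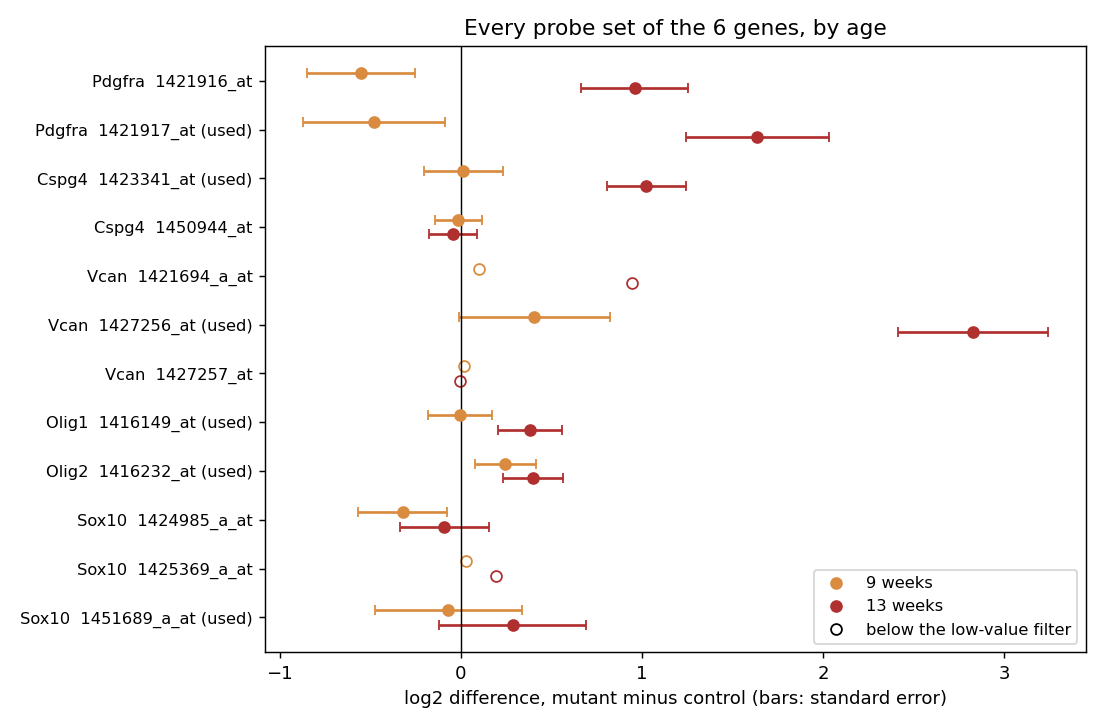
Mutant minus control log2 difference of every probe set of the 6 genes at 9 and 13 weeks, with SE from the fit over all 14136 probe sets (open circles: below the filter on low values, shown without SE). At 13 weeks both Pdgfra probe sets lie above 0, at 1.64 and 0.96, while the second Cspg4 probe set lies at -0.04 and the 3 Vcan probe sets are spread from -0.01 to 2.83.

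Olig1 and Olig2 encode basic helix-loop-helix factors that specify the lineage, and each has 1 probe set. Olig1 read 11.50, 11.54 and 11.92 in controls and 11.95, 11.92 and 12.23 in mutants at 13 weeks. Its groups met at 11.92, and the difference of 0.38 ± 0.18 had a 95% interval from -0.0042 to 0.76. Olig2 read 7.71, 7.93 and 8.09 in controls and 8.30, 8.09 and 8.53 in mutants, and its groups met at 8.09. The difference was 0.40 ± 0.17, with an interval from 0.035 to 0.76 before adjustment over all genes. Both passed without control mouse 3 at 13 weeks, with differences of 0.51 for Olig1 (adjusted p = 0.023) and 0.49 for Olig2 (adjusted p = 0.0288), which took the count of the list from 3 to 5. That mouse was the only female control of this age, so genotype and sex cannot be told apart in that fit.

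Sox10, a factor that drives myelin genes and precursor survival, read 8.02, 8.10 and 9.20 in controls and 8.75, 8.39 and 9.04 in mutants at 13 weeks. The groups overlapped, with the highest value in control mouse 3. The difference was 0.29 ± 0.40 with an interval from -0.60 to 1.17, so a change as large as that of Cspg4 lies within the interval. Without control mouse 3 at 13 weeks it was 0.67 (adjusted p = 0.179), and without control mouse 1, control mouse 2 or mutant mouse 3 of that age 0.077, 0.12 and 0.13; without mutant mouse 2 it was 0.46. A second Sox10 probe set differed by -0.09 ± 0.25, and the remaining one was below the percentile in all 12 arrays.

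At 9 weeks 0 of the 6 genes passed limma's test, where 5% of all genes did, 2.02% higher and 2.98% lower. Unadjusted p-values under 0.05 were also reached by 0 of them, and the smallest, that of Olig2, ranked 3110 of 8256. Pdgfra was nearest to a separation, at 8.48, 8.56 and 8.64 in controls and 7.99, 8.04 and 8.21 in mutants. All 3 mutants lay below all controls, as for 20.6% of all genes, and the difference of -0.48 ± 0.39 had adjusted p = 0.531. The SE here takes in the spread of the controls at 13 weeks through the shared estimate. When only the 6 arrays at 9 weeks were fitted, the same difference had an SE of 0.11 and passed (adjusted p = 0.0372), and without control mouse 3 at 13 weeks it passed as well (adjusted p = 0.0209). The second Pdgfra probe set differed by -0.55 ± 0.30 (adjusted p = 0.332).

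The other 5 genes showed overlapping groups at 9 weeks. Cspg4 differed by 0.01 ± 0.22, Olig1 by -0.01 ± 0.18 and Sox10 by -0.07 ± 0.40. Olig2 read 7.72, 7.40 and 7.50 in controls and 7.65, 7.86 and 7.85 in mutants (0.25 ± 0.17, adjusted p = 0.432). Vcan read 3.89, 4.47 and 4.88 in controls and 5.41, 5.18 and 3.87 in mutants. The low Vcan value belonged to mutant mouse 3, the array with high Slc17a6 and Calb2, and without it the difference was 0.88 in place of 0.41, with adjusted p = 0.207. Sox10 was highest in that same array, at 9.35 against 7.89 and 8.53, as was Olig1, at 11.95 against 11.45 and 11.54.

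The change of the genotype difference from 9 to 13 weeks was tested as an interaction, which 18.4% of all genes passed and 12.1% passed with a positive sign; after median centring 53.4% of the calls were positive, against 65.4%. Pdgfra changed by 2.12 ± 0.55 (adjusted p = 0.0197), Vcan by 2.42 ± 0.58 (adjusted p = 0.0137) and Cspg4 by 1.01 ± 0.31 (adjusted p = 0.0386). For Vcan the call held in each of 12 fits on 11 arrays. Pdgfra did so in 11, missing it without mutant mouse 2 at 13 weeks (adjusted p = 0.0586). Pdgfra also passed in 9 of 10 other settings, and was lost with no filter on low values (adjusted p = 0.0525). Cspg4 passed in 3 of the 12, which lacked mutant mouse 1, mutant mouse 3 or control mouse 3 of the older age, and its highest adjusted p was 0.0914. It was also lost with quantile normalization (adjusted p = 0.0865), median centring (0.0663), no filter on low values (0.05997) and the mean of both probe sets (0.118). The changes of Olig1 (0.39 ± 0.25), Olig2 (0.15 ± 0.23) and Sox10 (0.36 ± 0.57) did not pass. Whether the surface genes changed more than the transcription factors was not tested.

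The 2 ages were compared within each genotype. In mutants this comparison is mixed with sex, since 1 female and 2 males at 9 weeks stood against 3 females at 13 weeks. The 1 female was mutant mouse 1, and without it age and sex cannot be told apart in mutants. In controls 0 of the 6 genes passed limma's test, where 0.145% of all genes did. An unadjusted p under 0.05 was reached by 2, which ranked 1029 and 1349 by p among 8256 genes, so it was common among all genes. These were Pdgfra (-0.96 ± 0.39), all of whose controls were lower at 13 weeks, as for 16.7% of all genes, and Olig2 (0.37 ± 0.17). Without control mouse 3 at 13 weeks the Pdgfra difference was -0.33 (adjusted p = 0.208). The second Pdgfra probe set differed by 0.0033 ± 0.30 with age in controls (adjusted p = 0.996), so the fall rests on 1 probe set. In mutants 4 of 6 were higher at 13 than at 9 weeks, where 32.7% of all genes passed and 16.1% were higher: Vcan by 1.91 ± 0.41, Pdgfra by 1.16 ± 0.39, Cspg4 by 1.03 ± 0.22 and Olig2 by 0.52 ± 0.17. For each of these 4 genes all mutants at 13 weeks lay above all mutants at 9 weeks, as for 22.8% of all genes. Vcan and Cspg4 passed in all 12 fits without 1 array, Olig2 in 8 and Pdgfra in 3. The count fell to 2 without mutant mouse 1 or 2 at 9 weeks or mutant mouse 1 or 3 at 13 weeks, and also after median centring, which shifted the median of all genes in this comparison from -0.10 to -0.255 and the share of higher calls from 49.3% to 35%.

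Ordered by group mean, the mutants at 13 weeks came last for all 6 genes. For Cspg4 the other 3 groups lay within 0.02 of each other, at 3.74 to 3.76, and for Olig1 within 0.01, at 11.65. For Vcan the order was controls at 13 weeks, controls at 9 weeks, mutants at 9 weeks and mutants at 13 weeks, and among the 3 steps the last, 1.91, separated all arrays of 2 neighbouring groups. For Pdgfra both the step of 0.48 from mutants to controls at 9 weeks and that of 0.68 from those controls to mutants at 13 weeks separated all arrays. For Olig2 and Sox10 each neighbouring pair of groups overlapped.

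By the probe sets that stood for the genes, the mice of a group did not rank alike for the surface genes and the transcription factors. Among the mutants at 13 weeks, mouse 2 had the highest Pdgfra and Cspg4 and the lowest Olig1, Olig2 and Sox10, and mouse 3 had the highest Olig1, Olig2 and Sox10 and the lowest Vcan. By the second Pdgfra probe set mutant mouse 2 was instead the lowest (5.24) and mouse 3 the highest (5.54). By the second Sox10 probe set mouse 3 was the lowest, in a range of 5.23 to 5.30. The second probe sets of Cspg4 and Vcan kept mouse 2 highest (3.72) and mouse 3 lowest (3.29). Control mouse 3 at 13 weeks had the lowest Pdgfra, Cspg4 and Vcan of its group and the highest Olig1, Olig2 and Sox10. By the second probe sets of Pdgfra (4.49), Cspg4 (3.81) and Vcan (3.08) this mouse was instead the highest of its group. In that array the mean over 12 medium spiny neuron markers was 11.49, the highest of its group, which began at 10.97. Its mean over 11 myelin genes was 11.09 in a group range of 11.01 to 11.09. The part of these differences in the results was not tested.

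**Figure D3:**
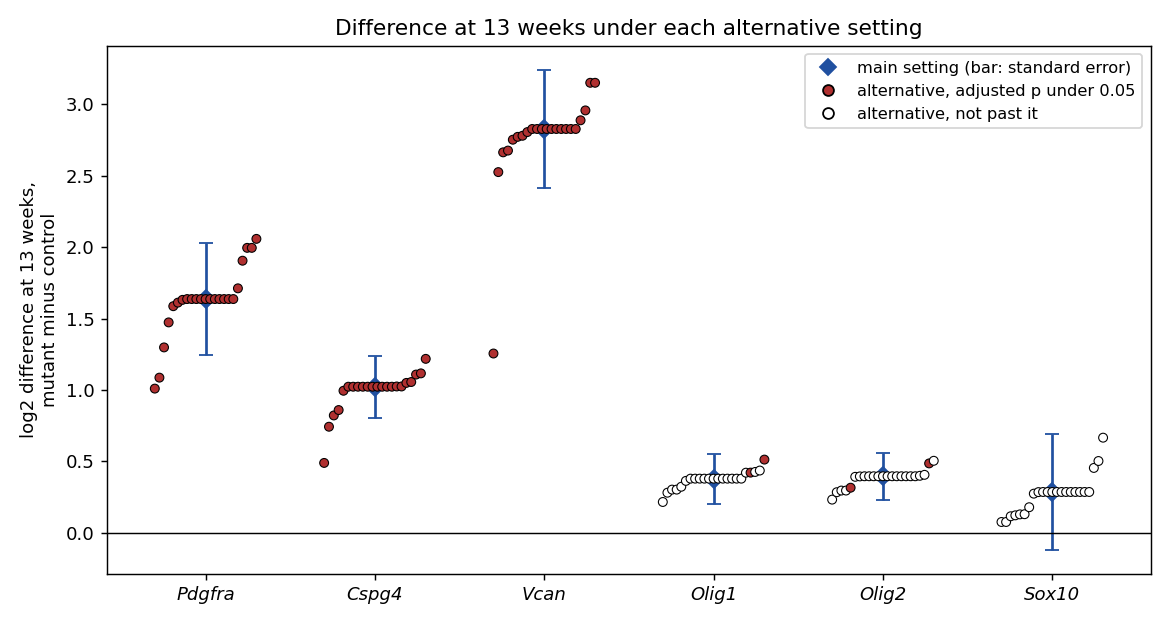
Log2 difference between mutants and controls at 13 weeks for each of the 6 genes with its SE (diamonds), and under each alternative setting other than single probe sets (circles, filled where adjusted p is under 0.05). Pdgfra, Cspg4 and Vcan are filled in all their settings, down to 1.01, 0.49 and 1.26, and Olig1 and Olig2 in 2 settings each.

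Genes whose values ran closest to those of a member were sought over the 12 arrays, by the root mean square difference after each gene's mean was subtracted. For Vcan these were Ahnak (0.32 log2), Ankrd33b (0.34) and the neurotensin gene Nts (0.37). For Pdgfra they were the acid ceramidase gene Asah1 (0.17), the Fc receptor gene Fcgr2b (0.20) and Rhoq (0.20). These distances take in the Pdgfra value of 6.35 in control mouse 3 at 13 weeks, a low value that the second Pdgfra probe set did not show. The part of that array in the likeness was not tested. For Cspg4 they were Ano10 (0.16), Prrc1 (0.16) and the zinc transporter gene Slc39a1 (0.17). Among the 6 genes themselves the closest pair was Olig1 and Olig2 (0.21), and Pdgfra and Cspg4 stood 0.58 apart.

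Of 15 other listed surface, adhesion and matrix genes of precursors 6 were tested at 13 weeks, where 2 rose and 1 fell, with a median of -0.02. Among all genes 23.4% were higher and 21.9% lower, so these counts lie near the background. Ptprz1, a receptor phosphatase gene of precursors and astrocytes, rose by 1.92 ± 0.24 (adjusted p = 5.44e-05), and the matrilin gene Matn4 by 1.68 ± 0.45 (adjusted p = 0.00957). Cacng4, a subunit gene of AMPA receptors, fell by 1.99 ± 0.33 (adjusted p = 0.000456), and Nxph1 differed by -0.15. At 9 weeks 0 of the 6 passed limma's test or an adjusted p of 0.05 in any fit without 1 array.

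Of 12 other transcription factors of the lineage 7 rose at 13 weeks and 0 fell, with a median of 0.77, where 23.4% of all genes were higher. Sox9, also a factor of astrocytes and counted in the astrocyte list too, rose by 2.11 ± 0.29 (adjusted p = 0.000122), Sox4 by 1.30 ± 0.22, Sox11 by 1.30 ± 0.38 and Sox6, which holds precursors in the immature state, by 1.23 ± 0.27 (adjusted p = 0.00311). The count was 3 of 12, near the share over all genes, without mutant mouse 1 or without mutant mouse 2 at 13 weeks. Myrf, the factor that switches on myelin genes, rose by 0.53 ± 0.18 and Nkx2-2 differed by 0.24 ± 0.16; this pair was named for its role after the values were seen. At 9 weeks 0 of 12 passed limma's test, among them Sox11 (0.82 ± 0.38) and Zeb2 (0.66 ± 0.32).

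Among 8 tested genes listed as inhibitors of precursor differentiation, 4 rose and 3 fell at 13 weeks, beside 23.4% higher and 21.9% lower among all genes. The 4 include Tcf4 (0.93 ± 0.18), the gene of a basic helix-loop-helix factor that is not an established inhibitor. Notch1, a receptor that keeps precursors from maturing, rose by 1.15 ± 0.16 (adjusted p = 0.000115) and Sox2 by 1.04 ± 0.19. Lingo1, a brake on myelination that neurons also make, fell by 2.08 ± 0.31 (adjusted p = 0.000218), and the Notch target Hes5 by 2.32 ± 0.44 (adjusted p = 0.00127), with 1 of 3 mutants above the percentile. Notch1 was the 1 member that rose at 9 weeks (0.61 ± 0.16, adjusted p = 0.0472). That call at 9 weeks was lost in 10 of the 12 fits without 1 array, and 4 members passed without control mouse 3 at 13 weeks.

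Of 11 tested growth factor and receptor genes 5 rose at 13 weeks and 0 fell, where 23.4% of all genes were higher. Pdgfb, a ligand gene of the PDGF family that endothelial cells make, rose by 1.41 ± 0.20 (adjusted p = 0.000172), and Pdgfrb, the PDGF receptor gene of pericytes, by 1.60 ± 0.29 (adjusted p = 0.000873). The fibroblast growth factor receptor genes Fgfr1 (1.77 ± 0.27) and Fgfr3 (1.29 ± 0.28) rose with them. Pdgfa, the ligand gene that acts on PDGFRA in precursors, stayed within its error, at 0.15 ± 0.23 (adjusted p = 0.606). Igf1 rose by 1.00 ± 0.30 from the low end of the scale, with 1 of 3 controls and 2 of 3 mutants above the percentile. Pdgfa and Igf1 were named for their roles after their values were seen. At 9 weeks 0 of 11 passed limma's test, with Pdgfc at -0.57 ± 0.24 and Pdgfb at -0.45 ± 0.20.

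Around versican, 4 of 9 tested relatives, hyaluronan partners and proteases rose at 13 weeks and 0 fell. The hyaluronan receptor gene Cd44 rose by 6.40 ± 0.18 and the protease gene Adamts1, whose product cleaves versican, by 2.48 ± 0.15. Both passed the filter only through the mutants at 13 weeks, with 0 controls above the percentile, so that they had to differ. Of the other 7 genes 2 rose, the link protein gene Hapln1 (1.13 ± 0.29) and Adamts5 (1.30 ± 0.24), near the 21.5% of all genes that were higher once those kept only through the mutants at 13 weeks were left out. Adamts5 also had 0 of 3 controls above the percentile at 13 weeks, so that its difference is taken from the low end of the scale. The lectican gene Ncan differed by -0.11 ± 0.36 at 13 weeks and -0.84 ± 0.36 at 9 weeks (adjusted p = 0.203). Without any 1 of the mutants at 13 weeks 7 genes of the list were tested and 2 rose.

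Genes of later stages of the lineage were counted in the same way. Of 7 genes of newly formed oligodendrocytes 3 rose at 13 weeks, Itpr2 (1.93 ± 0.20), Ugt8a (0.98 ± 0.21), which makes a myelin lipid, and Rras2 (1.79 ± 0.47), with a median of 0.61; without control mouse 3 at 13 weeks 5 rose. Of 11 mature oligodendrocyte and myelin genes 3 rose, Ndrg1 (1.08 ± 0.17), the tight junction gene Cldn11 (0.97 ± 0.22) and the gap junction gene Gjb1 (0.65 ± 0.23). Their median was 0.63, and their share lay near the 23.4% of all genes that were higher. The interaction in limma was passed by 0 of 11, where 18.4% of all genes passed it and 12.1% with a positive sign. The count of myelin genes was 2 without control mouse 1 at 9 weeks or without any 1 of the mutants at 13 weeks. Ndrg1 also rose at 9 weeks (0.75 ± 0.17, adjusted p = 0.031), a call that was lost without control mouse 2 or 3 or any 1 of the mutants at 9 weeks.

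**Figure D4:**
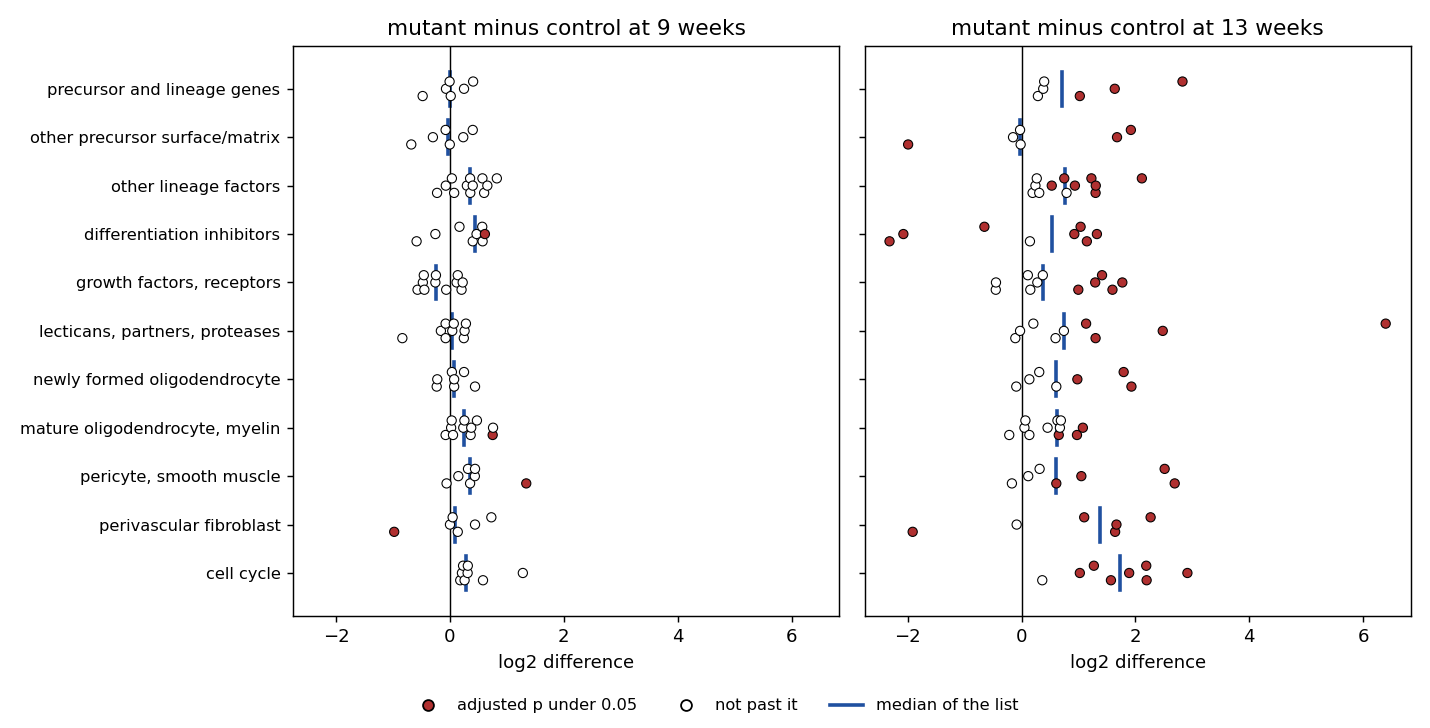
Log2 difference between mutants and controls at 9 (left) and 13 weeks (right) for each tested gene of the list (points, filled where adjusted p is under 0.05) with the list's median (blue bar), for the 6 genes, related lineage lists, 2 lists of other cell types and cell cycle genes. At 13 weeks the medians run from -0.02 for other precursor surface genes to 1.73 for cell cycle genes, with 0.71 for the 6 genes. In 3 lists they include genes kept only through the mutants at 13 weeks, which had to be higher. Without those genes the medians were 1.57 for cell cycle genes, 0.60 for the versican list and 0.51 for perivascular fibroblast genes.

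Markers of other cells that make the products of Pdgfra, Cspg4 and Vcan were examined beside them. Of 7 pericyte and smooth muscle genes 4 rose at 13 weeks, where 23.4% of all genes were higher, Tagln (2.69 ± 0.33), Notch3 (2.51 ± 0.23), Rgs5 (1.05 ± 0.26) and Kcnj8 (0.61 ± 0.15), and their mean over genes lay between 6.27 and 6.61 in controls and between 7.29 and 7.64 in mutants. Anpep, Abcc9, Des and Mcam of that list did not pass the filter. At 9 weeks Tagln alone of the 7 passed (1.34, adjusted p = 0.0415), a call lost in 7 of the 12 fits without 1 array. Of 6 perivascular fibroblast genes 4 were higher and Col6a1 fell (-1.91 ± 0.26). The 4 were Fn1 (2.27 ± 0.55), Col1a2 (1.67 ± 0.22), Islr (1.64 ± 0.25) and Dcn (1.10 ± 0.39), and the mean over the 6 genes was 4.71 to 5.003 in controls and 5.30 to 5.91 in mutants. Fn1 and Col1a2 passed the filter only through the mutants at 13 weeks, so that they had to be higher. Of the other 4 genes 2 rose and 1 fell, with a median of 0.51 in place of 1.37. The defining genes Col1a1, Col3a1, Lum and Slc6a13 did not pass the filter, and without any 1 of the mutants at 13 weeks 5 genes were tested and 2 rose. At 9 weeks Col6a1 alone of the 6 passed (-0.98, adjusted p = 0.0499), a call lost in 10 of the 12 fits without 1 array. The part of these cells in the rises of Pdgfra, Cspg4 and Vcan was not tested.

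Glial and cell cycle lists moved too at 13 weeks, where 23.4% of all genes were higher and 21.9% lower. Of 12 astrocyte genes 10 rose, with list means of 9.50 to 9.55 in controls and 11.54 to 11.69 in mutants, and of 13 microglia genes 12 rose, with 8.04 to 8.40 and 10.69 to 11.09. Of 8 cell cycle genes 7 were higher, with 4.61 to 4.996 in controls and 6.41 to 6.62 in mutants. They included Cdk1 (2.91 ± 0.52), Birc5 (2.20 ± 0.18), Top2a (2.19 ± 0.33) and Mki67 (1.89 ± 0.41), of which Birc5 was kept only through the mutants at 13 weeks; of the other 7 genes 6 rose. Medium spiny neuron genes fell in 11 of 12 members, with list means of 10.97 to 11.49 in controls and 8.66 to 9.43 in mutants. Since values are relative to the other RNA of an array, a loss of neuronal RNA and a gain of glial RNA cannot be told apart here, and its part in the differences of the 6 genes was not tested.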

How the data were processed

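Total RNA of striatum was hybridised to Affymetrix arrays, 1 per mouse. Per the submitters' processing notes the authors used GCRMA, whose version is not given in the sources used here, and deposited log2 values, which run from 1.09 to 15.48 with array medians of 5.29 to 5.52. Of 22690 probe sets, 64 controls were left out, and GEO's platform annotation gave 1 symbol for 20380, several for 691 and none for 1555. Those with several or none were not used, and updating through the RefSeq table changed 0 symbols. Values were used as deposited. Groups came from the sample titles. One limma model (version 3.58.1, lmFit and eBayes, under R 4.3.3) took in all 12 arrays, with 1 coefficient per group and 8 residual degrees of freedom; tests are two-sided and pass at an adjusted p under 0.05. The labels call the arrays of a group biological replicates, and their number limits the precision. No pair of arrays held identical values. The 6 genes, the gene lists, the naming rule (per list the 4 smallest p at 13 weeks and the 2 smallest at 9 weeks, and the 3 closest genes for members whose group means span over 1 log2) and the alternatives were chosen with earlier results of these data known. The procedure was tested on simulated data. Low GCRMA values are compressed, so a fold from that level depends on the background correction. Sequences are from RefSeq, GRCm38.p6.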

Additional observations from a re-analysis of the deposited data

Results flagged for a closer look

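The genotype difference of 3 genes differed between 9 and 13 weeks by limma's interaction test, 13-week minus 9-week difference: 2.12 for Pdgfra, 1.01 for Cspg4 and 2.42 for Vcan on the log2 scale. In Pdgfra the difference was -0.48 at 9 weeks and 1.64 at 13 weeks, in Cspg4 0.01 and 1.02, and in Vcan 0.41 and 2.83. At 9 weeks 0 of these 3 differences passed on its own, and the Cspg4 value rests on 1 of 2 probe sets, the other one giving -0.03.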

How the results depend on the processing

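At 13 weeks Pdgfra, Cspg4 and Vcan kept their direction and passed in each of the 12 fits without 1 array and in each of 11, 10 and 10 other settings, single probe sets aside. The number of the 6 genes that passed at 13 weeks, 3, was 1 with a filter at the 60th percentile, which dropped Cspg4 and Vcan, 5 with array weights, whose estimation stopped before it converged, and 3 to 5 without 1 array. At 9 weeks the number, 0, was 3 with array weights, 1 when only the groups compared were fitted and 0 to 1 without 1 array. For the change of the genotype difference, 3 became 1 with no filter on low values and 1 with the 60th percentile filter, and 1 to 3 without 1 array; the Cspg4 call passed in 4 of 9 settings. For age, 0 in controls became 2 with array weights, and 4 in mutants became 2 with median centring, 2 with the 60th percentile filter and 2 to 5 without 1 array. Directions that turned all belonged to differences within their error, or to other probe sets. Cspg4 at 9 weeks was -0.0186 with quantile normalization, -0.0117 with median centring, -0.0100 without both arrays high in Slc17a6 and Calb2, a setting chosen after seeing the data, and -0.0133 by its other probe set. Olig1 at 9 weeks was 0.0546 with quantile normalization, Cspg4 for age in controls -0.0271 with quantile normalization, and Sox10 for age in mutants -0.0150 with median centring. By other probe sets the values were 0.0267 (Sox10, 9 weeks), -0.0433 (Cspg4), -0.0067 (Vcan) and -0.0900 (Sox10) at 13 weeks, -0.0300 (Cspg4) and -0.0267 (Vcan) for the change, 0.0033 (Pdgfra), 0.0233 and 0.0200 (Vcan) for age in controls, and -0.0067 (Vcan) for age in mutants. Without 1 array, the 9-week differences ran from -0.0750 to 0.1250 for Cspg4, -0.1583 to 0.0917 for Olig1 and -0.4500 to 0.2800 for Sox10, age in controls from -0.0100 to 0.0450 for Cspg4, and age in mutants from -0.2133 to 0.5167 for Sox10. The causes were not tested. The replicate numbers were not shown to pair the samples: same-numbered samples of 2 groups correlated at -0.119 to 0.316 in their deviations, and a fit with the replicate block gave 0 genes at 9 weeks, 3 at 13 weeks, 3 for the change, 0 for age in controls and 4 for age in mutants and changed no call. Cspg4 and Vcan lie near the low end of the signal in controls, where these arrays resolve little.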
